A study of Mus musculus with 2 samples.

Results

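Lymphocyte-recruiting chemokines and interferon gamma were followed in regenerating mouse skeletal muscle through 7 genes of the 27998 in the count tables. These were the ligands Cxcl9, Cxcl10, Cxcl16 and Ccl5, the receptors Cxcr3 and Cxcr6, and Ifng, which encodes interferon gamma. The genes were listed by name and were not chosen by a threshold on these libraries. Tibialis anterior muscle of C57BL/6J mice was injured with notexin, a snake venom toxin that destroys muscle fibers, and dissociated cells were sequenced with droplet chemistry (10x Chromium v3) at 2 or 7 days post-injury (dpi). Each time point had 1 library from 1 mouse, so no difference below has a replicate check and no test was made between the time points. The labels give female mice aged 7 months for both libraries, whereas the deposited cell annotation gives male mice aged 4 months at 2 dpi and 7 months at 7 dpi, so age cannot be told apart from time after injury. Both mice were injured, and no uninjured muscle was analysed here. In sums over cells of a label, a level per cell does not separate more cells with a transcript from more transcript per cell.

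CXCL9 and CXCL10 are secreted ligands of CXCR3, a receptor of activated T cells and natural killer (NK) cells, and both are classical products of cells exposed to interferon gamma. CXCL16 is made as a membrane-bound chemokine that can be shed by the proteases ADAM10 and ADAM17, and its receptor is CXCR6. CCL5 is released by cytotoxic lymphocytes and by myeloid cells and attracts T cells and monocytes. Interferon gamma itself is secreted mainly by NK and T cells, and signals through a receptor found on most cells.

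The genes for Cxcl9 (chr5:92321347-92328079, minus strand) and Cxcl10 (chr5:92346638-92348889, minus strand) are neighbors in GRCm38. Cxcl16 lies at chr11:70453983-70459984 (minus strand), Ccl5 at chr11:83525778-83530518 (minus strand), Cxcr3 at chrX:101731535-101734269 (minus strand), Cxcr6 at chr9:123806475-123811760 (plus strand) and Ifng at chr10:118441046-118445892 (plus strand). Cxcl10, Cxcl16 and Cxcr6 each overlap a protein-coding gene on the opposite strand, namely Art3, Zmynd15 and Fyco1, and Ifng overlaps Gm49751 on its own strand. RefSeq windows for GRCm38.p6 were found for 5 of the 7 genes, and not for Cxcl16 or Ccl5. The 250 bases upstream of the start sites of Cxcl9 and Cxcl10 are shown because both ligands were higher at 7 dpi in stromal cells. Each is written 5′ to 3′ on the gene's strand, with capitals marking matches to the searched motifs.
Cxcl9, chr5:92328080-92328329: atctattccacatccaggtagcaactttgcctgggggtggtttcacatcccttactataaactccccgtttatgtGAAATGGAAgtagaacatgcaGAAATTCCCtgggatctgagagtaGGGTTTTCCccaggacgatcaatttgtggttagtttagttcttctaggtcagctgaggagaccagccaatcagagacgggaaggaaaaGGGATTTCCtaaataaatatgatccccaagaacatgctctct
Cxcl10, chr5:92348890-92349139: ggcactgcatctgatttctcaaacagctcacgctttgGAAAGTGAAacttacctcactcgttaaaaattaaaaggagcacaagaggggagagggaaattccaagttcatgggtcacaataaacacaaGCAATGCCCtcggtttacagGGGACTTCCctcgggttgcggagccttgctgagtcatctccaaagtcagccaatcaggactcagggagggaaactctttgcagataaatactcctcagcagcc

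Both windows held the core of the interferon-stimulated response element, searched as GAAANNGAA on either strand. The Cxcl9 match began 175 bases and the Cxcl10 match 213 bases upstream of the start site, and 7.13% of all 32851 windows of the same length held such a match. The kappaB pattern GGGNNTTNC, also searched on either strand, matched at 3 places in the Cxcl9 window and at 2 in the Cxcl10 window, against 13.0% of all windows with at least 1 match. It also matched at 1 place in the Cxcr3 window, and not in the Cxcr6 or Ifng window. The interferon gamma activated site TTCNNNGAA was found in 7.02% of all windows, and in the Ifng window but in neither ligand window. The T-box pattern GGTGTGA, present in 3.33% of windows, matched in none of the 5 windows. None of the matches overlapped another motif's match.

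Counts were summed over the cells that carried each of 25 cell type labels given by the authors, and over 12 broader classes. Levels are in CPM, the counts of a gene per 1000000 counts of all genes in the same cells. Intervals in parentheses are exact 95% intervals that cover counting error only. The filtered tables held 41123913 counts in 4836 barcodes at 2 dpi and 32356088 counts in 4889 barcodes at 7 dpi, of which 3178 and 3196 labeled cells met the limits on cell quality. The libraries shared 4 barcodes, 1 of them among these cells. Because the labels came from clustering on all genes, and Cxcl10 names a monocyte label, differences between labels are given as a description. The 6 monocyte and macrophage markers summed to 15514 CPM at 2 dpi and 35933 CPM at 7 dpi in their own class. In fibro-adipogenic progenitors (FAPs), the stromal cells of muscle, the 6 FAP and tenocyte markers summed to 9231 CPM at 2 dpi and 64253 CPM at 7 dpi. The smooth muscle class carried 5 endothelial markers at 4356 and 6060 CPM, above its own 5 markers at 2204 and 4258 CPM, so it is called by its label only. The dendritic label held all 8 dendritic cell markers on both days, at 845 and 1186 CPM, below the 6 monocyte and macrophage markers at 2070 and 1806 CPM. Dendritic cells are therefore the cells of that label.

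The lymphocyte labels were uneven. At 2 dpi the T cell label held 50 cells and the NK label 21 cells, against 293 and 111 at 7 dpi. All 9 T cell markers were detected in the T cell label on both days, summing to 877 CPM at 2 dpi and 2765 CPM at 7 dpi. At 2 dpi this label carried the 6 basophil and mast cell genes at 3340 CPM and the 5 endothelial markers at 1501 CPM, both above its own markers, and at 7 dpi these stood at 7.38 and 1241 CPM. At 2 dpi, 17 of the 50 T cell-labeled cells carried 3 or more counts of basophil and mast cell genes, 167 counts of the basophil protease gene Mcpt8 among them. Those 17 cells had 0 counts of Cd3e, Cd3g, Ccl5, Cxcr3, Cxcr6 and Ifng, which allows up to 40.8 CPM each at a floor of 3 counts, so all counts of these genes in the label at 2 dpi lay in the other 33 cells. Levels of the T cell label are given over all 50 cells, and over the 33 cells Ccl5 was at 709 CPM, Cxcr6 at 70.4 CPM and Ifng at 25.1 CPM. The NK label had all 10 NK markers on both days, at 5115 and 6513 CPM. It also carried the 6 monocyte and macrophage markers at 3822 CPM at 2 dpi and 1026 CPM at 7 dpi.

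Cxcl9 at 7 dpi was found mainly in stromal cells, and its level was higher than at 2 dpi. In FAPs it was 30.4 CPM (25.8 to 35.6) at 2 dpi and 348 CPM (335 to 361) at 7 dpi, an 11.4-fold difference, or 3.52 on the log2 scale (3.28 to 3.76). Of the 156 FAP counts at 2 dpi, 75 came from 1 cell, and without the highest cell on each day the log2 ratio was 4.35. FAPs held 52.5% (46.7 to 58.3) of the Cxcl9 counts of all labeled cells at 2 dpi and 74.2% (72.8 to 75.6) at 7 dpi, while they were 6.77% and 25.2% of these cells and gave 15.1% and 29.5% of all counts. Without the highest cell the FAP share was 36.5% at 2 dpi and 72.7% at 7 dpi. The 7 dpi level followed the FAP labels in the order Pro-remodeling, 394 CPM (378 to 410), Adipogenic, 300 CPM (274 to 328), and Stem. The Stem label had 27.6 CPM (19.2 to 38.3) at 2 dpi, and its log2 ratio of 0.24 (-0.63 to 1.08) had an interval that included 0. In the Adipogenic label Cxcl9 had 0 counts at 2 dpi, and against a floor of 3 counts its level was at least 35.6-fold higher at 7 dpi.

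**Figure D1:**
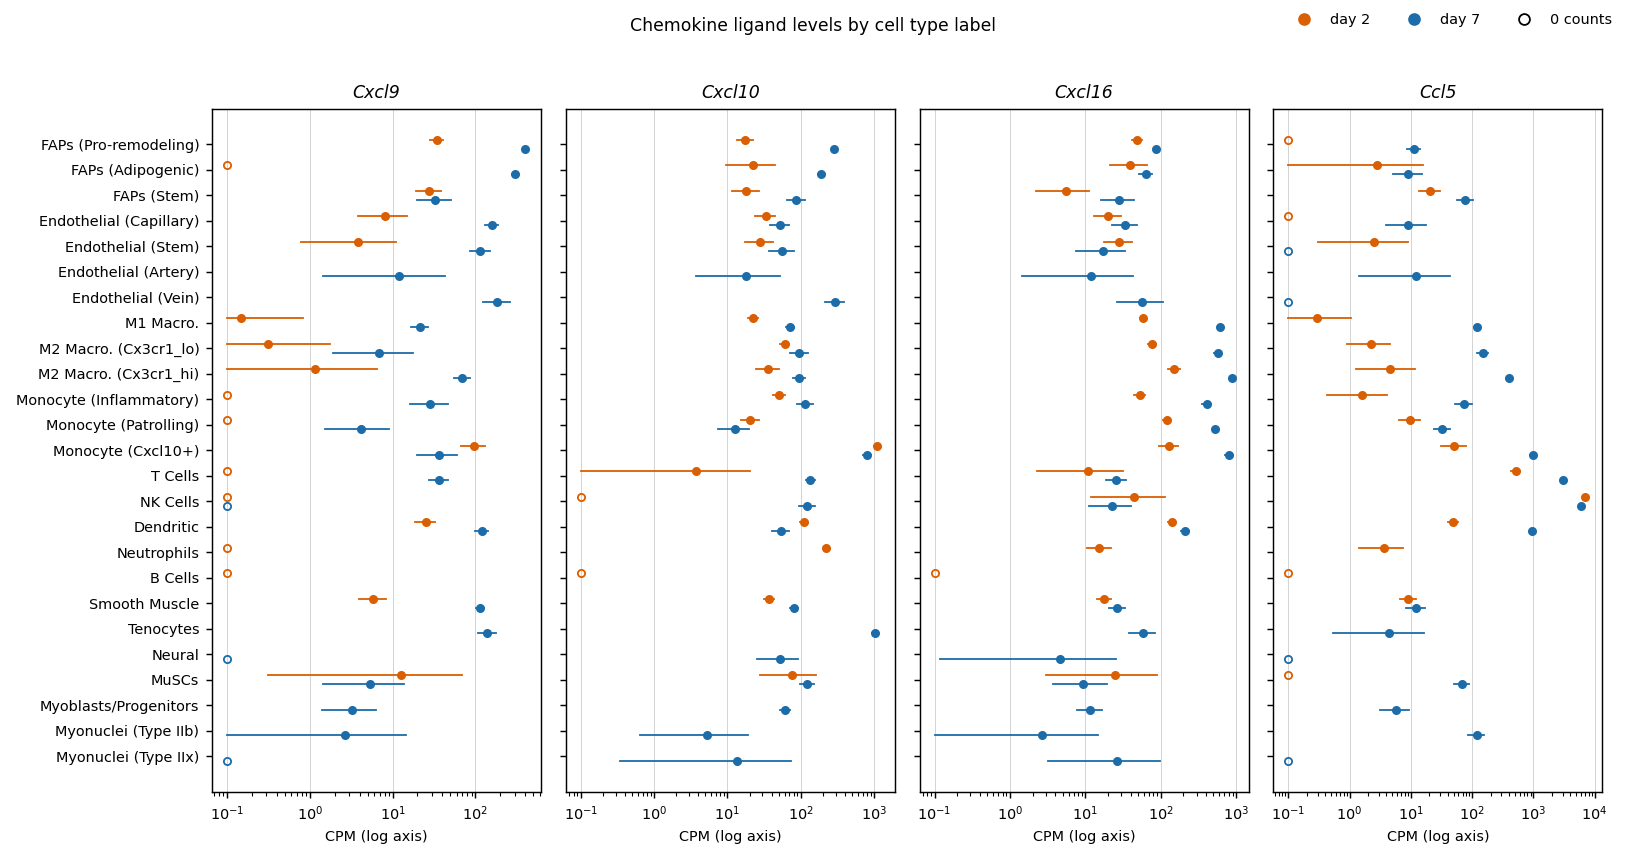
Levels of the 4 ligands in CPM (log axis) for each cell type label with at least 20 cells, at 2 dpi (orange) and 7 dpi (blue). Points are sums over the cells of 1 library, lines are 95% counting intervals, cut at the left, and open circles there mark 0 counts. Cxcl9 in Pro-remodeling FAPs reached 394 CPM at 7 dpi, and Cxcl16 in Cx3cr1-high macrophages reached 876 CPM.

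At 7 dpi Cxcl9 was lower in endothelial cells and in the smooth muscle label than in FAPs, and tenocytes had 139 CPM. In endothelial cells Cxcl9 was 6.18 CPM at 2 dpi and 134 CPM (117 to 152) at 7 dpi, and in cells of the smooth muscle label it was 5.87 and 114 CPM (101 to 127). On the log2 scale these differences were 4.43 (3.68 to 5.29) and 4.27 (3.73 to 4.87), and the intervals overlapped. Among endothelial labels at 7 dpi, Vein (183 CPM), Capillary (158 CPM) and Stem (114 CPM) each did not stand apart from the label ranked next below beyond counting error, and Artery, 26 cells, had only 2 counts. Neural cells had 0 counts at 7 dpi, which allows up to 14.0 CPM, and myogenic cells had 3.71 CPM (1.92 to 6.49). Barcodes with 1 to 100 counts, used as a measure of free RNA, held Cxcl9 at 2.62 CPM at 2 dpi and 60.6 CPM at 7 dpi.

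In monocytes and macrophages Cxcl9 was far lower, at 2.49 CPM and 26.1 CPM. The 2 dpi value was almost wholly 1 cell of the Cxcl10+ monocyte label, which held 38 of 41 counts. Without the highest cell on each day the log2 ratio was 6.82 in place of 3.39. Dendritic cells had 25.1 CPM at 2 dpi, with 43 of 54 counts in 1 cell, and 120 CPM (100 to 143) at 7 dpi. At 7 dpi, 64 of the 125 dendritic counts lay in 29 of 145 dendritic cells with at least 2 counts of Xcr1 or Clec9a, markers of cross-presenting dendritic cells. That subset stood at 210 CPM (162 to 268) and held 51.2% of the counts, or 74.4% where 1 marker count was enough.

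The cells that held most Cxcl10 differed between the days. At 2 dpi monocytes and macrophages held 48.1% (46.0 to 50.3) of its counts and neutrophils 21.3% (19.5 to 23.1), whereas FAPs held 4.49%. At 7 dpi FAPs held 48.0% (46.5 to 49.5) and monocytes and macrophages 18.9% (17.7 to 20.1). The level in FAPs was 17.9 CPM (14.4 to 22.0) at 2 dpi and 249 CPM (238 to 260) at 7 dpi, a 13.9-fold difference and a log2 ratio of 3.79 (3.49 to 4.11). Each FAP label was higher at 7 dpi. On the log2 scale the difference was 4.02 (3.65 to 4.41) for Pro-remodeling, 3.09 (2.09 to 4.31) for Adipogenic and 2.25 (1.52 to 3.03) for Stem. In the FAPs of 7 dpi, 321 of 805 cells had a Cxcl9 count and 199 a Cxcl10 count, and 125 had both. The 41 FAPs with the most Cxcl10 held 73.0% of its 2026 counts.

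In endothelial cells and in monocytes and macrophages the ratio was smaller than in FAPs. Endothelial Cxcl10 was 26.8 and 72.1 CPM (59.8 to 86.2), with a log2 ratio of 1.43 (0.98 to 1.89), and monocyte and macrophage Cxcl10 was 59.8 and 106 CPM, with a log2 ratio of 0.83 (0.69 to 0.96). These 7 dpi levels can be read beside those of neural cells, 51.3 CPM (25.6 to 91.8), and of myogenic cells, 75.8 CPM (66.6 to 85.9). Free RNA in barcodes with 1 to 100 counts stood at 31.8 CPM at 2 dpi and 144 CPM at 7 dpi. In barcodes with 1 to 10 counts it was 63.2 CPM at 7 dpi, and both class levels lay between these 7 dpi measures. Neutrophils had 224 CPM (203 to 246) at 2 dpi and were 10 cells at 7 dpi. Dendritic cells went the other way, with 110 CPM (96.3 to 125) at 2 dpi and 53.9 CPM (40.7 to 70.0) at 7 dpi. Of the 236 counts at 2 dpi 112 lay in 1 cell, and without the highest cell on each day the levels were 58.0 and 41.6 CPM. In the Cxcl10+ monocyte label the level was 1087 CPM at 2 dpi and 798 CPM at 7 dpi, and the label is named for this gene.

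A level of 1032 CPM in tenocytes at 7 dpi, the highest of any label for Cxcl10 on that day, came from 1 cell. It held 448 of the 461 tenocyte counts, and the remaining 47 cells had 31.3 CPM. That cell had 31636 counts in all, against a class median of 8442, with 395 counts of FAP and tenocyte markers and 3 of monocyte and macrophage markers. T and NK cells had 1 Cxcl10 count at 2 dpi and 279 at 7 dpi, or 132 CPM (117 to 148), beside free RNA at 144 CPM in barcodes with 1 to 100 counts and 63.2 CPM (44.0 to 87.9) in those with 1 to 10. Cxcl9 in T and NK cells was 27.9 CPM at 7 dpi, below free RNA. Its 59 counts lay in 16 cells with a median depth of 13642 counts, against 3616.5 for the other cells of the class. The highest held 15 of them, with 202 counts of endothelial markers and 0 of T cell markers. The part of free RNA and of other cell types in these lymphocyte values was not tested.

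**Figure D2:**
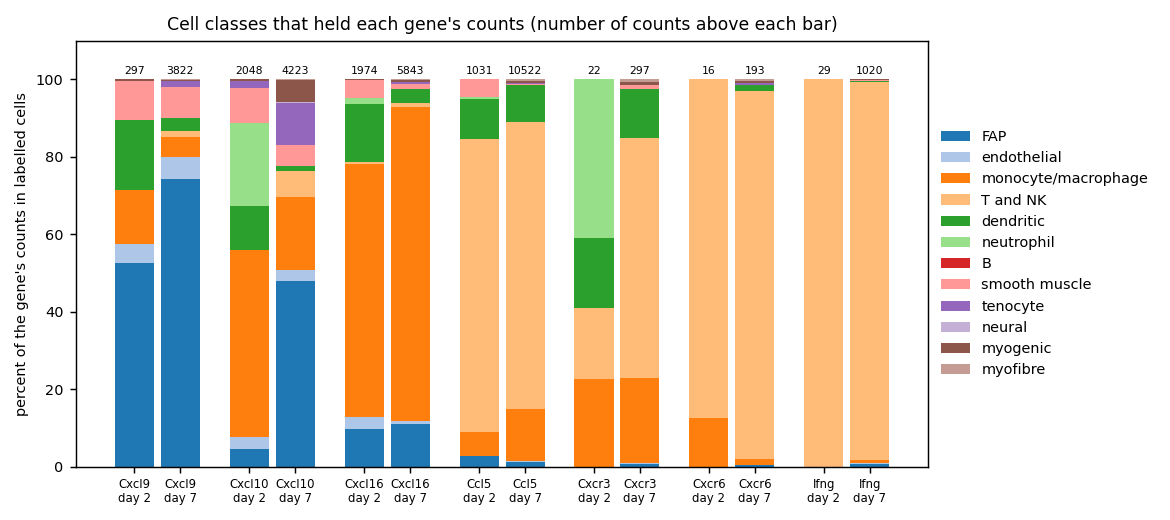
Share of each gene's counts in labeled cells that lay in each of 12 cell classes, at 2 and 7 dpi, with the number of counts above each bar. FAPs held 74.2% of Cxcl9 and monocytes and macrophages 81.2% of Cxcl16 at 7 dpi, and T and NK cells held 97.6% of Ifng.

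Cxcl16 was found mainly in macrophages and monocytes on both days. Free RNA held it at 26.2 CPM at 2 dpi and 126 CPM at 7 dpi. Monocytes and macrophages had 78.4 CPM (74.2 to 82.8) at 2 dpi and 631 CPM (613 to 649) at 7 dpi, an 8.04-fold difference and a log2 ratio of 3.01. They held 65.5% of its counts at 2 dpi and 81.2% (80.1 to 82.2) at 7 dpi. All 6 monocyte and macrophage labels had higher levels at 7 dpi, with log2 ratios from 2.13 (1.95 to 2.32) in patrolling monocytes to 3.38 (3.22 to 3.54) in M1 macrophages. At 7 dpi the order was led by Cx3cr1-high M2 macrophages, 876 CPM (824 to 930), and Cxcl10+ monocytes, 808 CPM (721 to 903), which did not stand apart. Unlike the CXCR3 ligands, Cxcl16 was spread over cells. The highest macrophage held 0.865% of the class counts at 7 dpi, and 696 of 757 monocytes and macrophages had at least 1 count.

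After every cell was thinned to 1000 counts, 53.5% (45.4 to 61.4) of Cx3cr1-high M2 macrophages had a Cxcl16 count at 7 dpi and 9.76% (4.31 to 18.3) at 2 dpi. Without thinning the shares were 95.6% and 45.1%. In myogenic cells, used as a class that should lack the gene, 0 of 312 thinned cells had a count at 7 dpi, which allows a share of up to 0.962%, and unthinned it was 6.09%. The median depth at 7 dpi was 8546 counts per monocyte or macrophage and 6793 per myogenic cell. In dendritic cells Cxcl16 was at 140 and 212 CPM (185 to 242). Cells with at least 2 counts of Ccr7 or Fscn1, genes of mature dendritic cells, had 674 CPM (543 to 827) at 7 dpi. FAPs had 37.4 and 78.4 CPM (log2 ratio 1.07, 0.83 to 1.31). Endothelial cells had 24.3 and 29.2 CPM, and the interval of their log2 ratio of 0.26 (-0.31 to 0.83) included 0. The sheddase genes did not share the macrophage difference, with log2 ratios there of -0.39 (-0.55 to -0.24) for Adam10 and 0.42 (0.31 to 0.54) for Adam17.

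**Figure D3:**
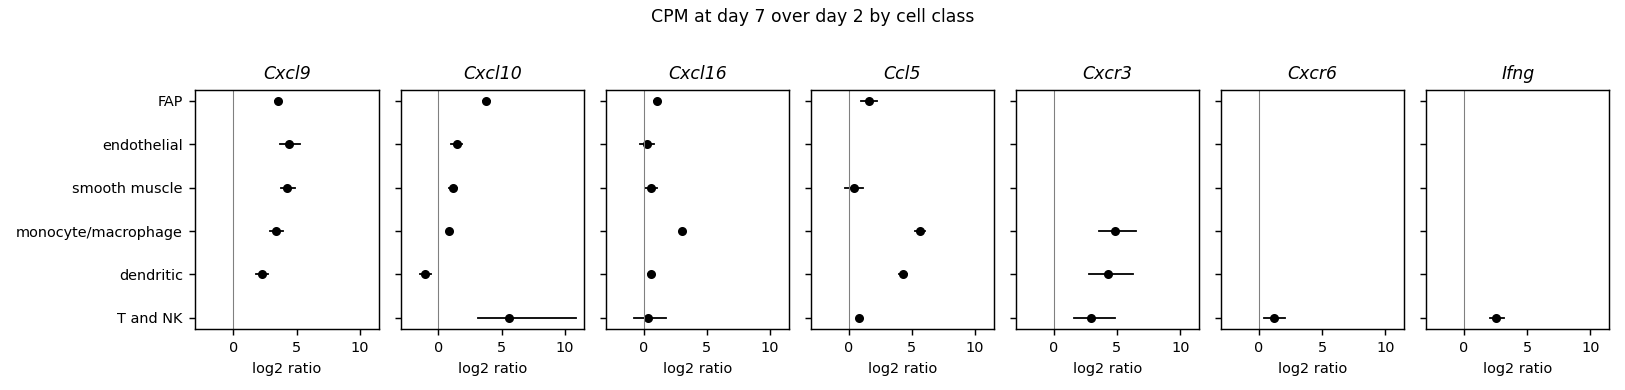
Log2 ratio of CPM at 7 dpi over 2 dpi for each gene and 6 cell classes, with 95% counting intervals, for genes with at least 20 counts over both days in the class and counts on both days. Cxcl9 was higher at 7 dpi in the 5 classes drawn, and Cxcl10 in dendritic cells lay at -1.03.

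Ccl5 was mostly a lymphocyte transcript, and T and NK cells held 75.6% (72.8 to 78.2) of its counts at 2 dpi and 74.2% (73.3 to 75.0) at 7 dpi. The level in the NK label was 7048 CPM (6512 to 7617) at 2 dpi and 5971 CPM (5757 to 6191) at 7 dpi. In the T cell label it was 518 CPM (436 to 610) at 2 dpi and 2997 CPM (2913 to 3082) at 7 dpi, a log2 ratio of 2.53 (2.29 to 2.79). At 2 dpi, 6 of 50 T cell-labeled cells carried the 141 counts, and 82 of these lay in the 3 cells with at least 2 counts of Cd8a or Cd8b1. At 7 dpi, 105 cells with at least 2 counts of Cd8a or Cd8b1 had 6058 CPM (5861 to 6261), and 32 cells with at least 2 counts of Cd4 had 337 CPM (265 to 423). For T and NK cells as 1 class the log2 ratio was 0.78 (0.67 to 0.89), and 0.45 without the cells with basophil genes.

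Ccl5 in myeloid cells was higher at 7 dpi, in few cells. Monocytes and macrophages had 3.88 CPM (2.99 to 4.96) at 2 dpi and 191 CPM (181 to 201) at 7 dpi, a log2 ratio of 5.62 (5.26 to 6.00). The 8 dendritic cell markers in this class summed to 17.1 CPM at 2 dpi and 355 CPM at 7 dpi. The 9 T cell markers summed to 3.88 and 37.9 CPM, and the 10 NK markers to 0.971 and 5.98 CPM. The part of these cell types in the Ccl5 value was not tested. Neural cells had 0 counts at 7 dpi, which allows up to 14.0 CPM, and myogenic cells had 20.1 CPM, while free RNA stood at 12.4 CPM at 2 dpi and 214 CPM at 7 dpi. The 38 monocytes and macrophages with the most Ccl5 held 83.9% of the class counts at 7 dpi. Dendritic cells had 49.4 CPM (40.4 to 59.7) and 962 CPM (903 to 1024), a log2 ratio of 4.28 (3.99 to 4.59). At 7 dpi, 836 of 1000 dendritic counts lay in the 19 cells with at least 2 counts of Ccr7 or Fscn1. Their level, 6126 CPM (5718 to 6556), stood beside that of NK cells. The same 19 cells had 1 count of Cd3e, 2 of Cd3g and 3 of Cxcr6, 0 of the NK cell gene Ncr1, and 27 of Flt3, a dendritic cell receptor. At 2 dpi the corresponding 44 cells had 127 CPM (99.2 to 159).

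Cxcr3 was barely detected at 2 dpi. Over all labeled cells it had 22 counts, 9 of them in neutrophils and 4 in T and NK cells. At 7 dpi it had 297 counts, of which T and NK cells held 62.0% (56.2 to 67.5). The level in T and NK cells was 11.0 CPM at 2 dpi, from 4 counts, and 86.9 CPM (74.8 to 100.1) at 7 dpi, a log2 ratio of 2.98 with a wide interval (1.60 to 4.87). At 7 dpi the T cell label had 99.6 CPM (84.9 to 116) and the NK label 44.8 CPM (28.1 to 67.8), and these stood apart. The 32 cells with Cd4 had 168.5 CPM (119 to 232) and the 105 cells with Cd8a or Cd8b1 had 157 CPM (126 to 192), with intervals that overlapped. Among 11 cells with at least 2 counts of Foxp3, the factor of regulatory T cells, Cxcr3 had 142 CPM (73.2 to 247).

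Dendritic cells also carried Cxcr3. Their level was 1.86 CPM at 2 dpi and 36.6 CPM (25.9 to 50.2) at 7 dpi, and 22 of the 38 counts at 7 dpi lay in the 29 cells with Xcr1 or Clec9a, at 72.3 CPM (45.3 to 109). In monocytes and macrophages Cxcr3 was 8.64 CPM (6.67 to 11.0) at 7 dpi, which lay near free RNA at 7.65 CPM (5.41 to 10.5). FAPs had 0.245 CPM and myogenic cells 0.619 CPM on that day.

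Among the lymphocyte labels, Cxcr6 lay almost wholly in T cells. At 7 dpi the T cell label had 111 CPM (95.7 to 129) and the NK label 4.07 CPM (0.493 to 14.7), from 181 and 2 counts, beside free RNA at 4.43 CPM. At 2 dpi the T cell label had 14 counts in 7 cells, or 51.4 CPM (28.1 to 86.2), and the NK label had 0, which allows up to 33.1 CPM. T and NK cells held 94.8% (90.7 to 97.5) of its counts at 7 dpi. The log2 ratio in T and NK cells was 1.16 (0.38 to 2.06), and 0.84 without the cells with basophil genes.

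Few of the 50 T cell-labeled cells at 2 dpi carried these genes, with Cxcr6 in 7, Ccl5 in 6, Ifng in 3 and Cxcr3 in 2. Of the 7 cells with Cxcr6, 0 had Ccl5, Cxcr3 or Ifng, which is near what these shares of the label give. All 3 cells with Ifng had Ccl5. Of the 14 Cxcr6 counts, 10 lay in 7 cells with at least 2 counts of Cd163l1, listed here as a marker of gamma delta T cells. The genes Trdc and Tcrg-C1, also listed for these cells, were not in the count tables. In these 7 cells Cxcr6 stood at 549 CPM (263 to 1010). At 7 dpi, 15 cells met the same criterion and had 524 CPM (346 to 763) of Cxcr6, with 0 counts of Ccl5 and Ifng, which allows up to 58.3 CPM each. They carried Cd3e with 12 counts at 2 dpi and 25 at 7 dpi. Most Cxcr6 at 7 dpi lay elsewhere, with 90 of 181 counts in the cells with Cd8a or Cd8b1, at 153 CPM (123 to 189). Of 293 T cell-labeled cells at 7 dpi, 91 had Cxcr3 and 90 had Cxcr6, and 37 had both. Of the 90 cells with Cxcr6, 64 had Ccl5 and 39 had Ifng. Over all 293 cells, 189 had Ccl5 and 120 had Ifng, so the cells with Cxcr6 were near the shares of the whole label.

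**Figure D4:**
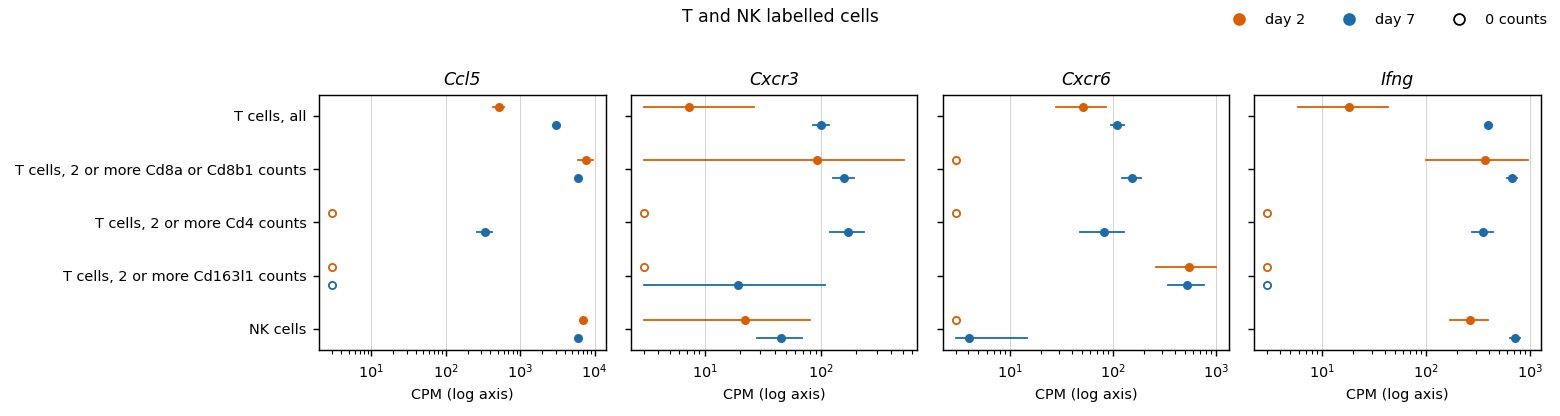
Levels of Ccl5, Cxcr3, Cxcr6 and Ifng in CPM (log axis) in the T cell label, its subsets with at least 2 counts of the named markers, and the NK label, at 2 dpi (orange) and 7 dpi (blue). Lines are 95% counting intervals cut at the left edge, and open circles there mark 0 counts. Cxcr6 was highest in cells with Cd163l1, 549 CPM at 2 dpi and 524 CPM at 7 dpi, where Ccl5 and Ifng had 0 counts.

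Ifng lay mainly in NK cells at 2 dpi and in both T and NK cells at 7 dpi. All 29 of its counts at 2 dpi lay in T and NK cells, 24 of them in 13 of the 21 NK-labeled cells. At 7 dpi T and NK cells held 996 of 1020 counts, or 97.6% (96.5 to 98.5). The NK label had 265 CPM (170 to 395) at 2 dpi and 713 CPM (640 to 792) at 7 dpi, a log2 ratio of 1.43 (0.83 to 2.09). The T cell label had 18.4 CPM (5.96 to 42.8) and 397 CPM (367 to 429), a log2 ratio of 4.44 (3.21 to 6.06). For the class the ratio was 5.89-fold, or 2.56 (2.03 to 3.14) on the log2 scale. The T cell-labeled cells outnumbered NK cells at 7 dpi and held 646 of the 1020 counts.

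Within T cells at 7 dpi, Ifng was 670 CPM (605 to 739) in cells with Cd8a or Cd8b1 and 351 CPM (277 to 438) in cells with Cd4. Cells with Foxp3 had 35.4 CPM (7.30 to 103) from 3 counts, beside free RNA at 30.6 CPM. Thinned to 1000 counts per cell, 22.2% (17.6 to 27.4) of T cell-labeled and 27.9% (19.8 to 37.2) of NK-labeled cells had an Ifng count at 7 dpi, against 2.00% (0.0506 to 10.6) and 28.6% (11.3 to 52.2) at 2 dpi. Unthinned, the 7 dpi shares were 41.0% and 51.4%, the 2 dpi shares 6.00% and 61.9%. Among 333 endothelial cells at 7 dpi the thinned share was 0%, which allows up to 0.901%, and the unthinned share was 0.901%. Median depth at 7 dpi was 3620 counts per T cell, 3991 per NK cell and 4217 per endothelial cell. At 7 dpi 120 of 293 T cell-labeled cells had Ifng, and 102 of these had Ccl5, which 189 of the 293 had.

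The count of members that were at least 2-fold higher at 7 dpi was set against all genes with at least 20 counts over both days in the class. In FAPs 4 of 4 members with enough counts were higher, where 25.6% of 11851 genes were higher and 14.0% lower. Only Cxcl9 and Cxcl10 of these 4 stayed 2-fold higher under every alternative run. With per-cell means the FAP log2 ratio was 0.95 for Cxcl16 and 0.61 for Ccl5, and with median-of-ratios scaling that of Cxcl16 was 0.84. Of the 128 FAP counts of Ccl5 at 7 dpi, 43 lay in 1 cell with 37 counts of NK markers and 12 of T cell markers. At 7 dpi Cxcl16 in FAPs, 78.4 CPM, and Ccl5, 15.7 CPM, lay below free RNA at 126 and 214 CPM. The part of that cell in the FAP value of Ccl5, and of free RNA in both values, was not tested. In endothelial cells Cxcl9 and Cxcl10, 2 of 3, were higher against 14.9% of genes higher and 9.50% lower. In the smooth muscle label 2 of 4, also Cxcl9 and Cxcl10, were higher against 14.1% higher and 7.86% lower. Cxcl10 there was 36.8 CPM at 2 dpi and 81.2 CPM at 7 dpi, beside 72.1 CPM in endothelial cells at 7 dpi. Both 7 dpi levels lay below free RNA in barcodes with 1 to 100 counts, 144 CPM. They lay above that in barcodes with 1 to 10 counts, 63.2 CPM. The part of free RNA in these values was not tested. In monocytes and macrophages 4 of 5 were higher, namely Cxcl9, Cxcl16, Ccl5 and Cxcr3, against 19.3% higher and 12.8% lower. Of these, Cxcl9 at 26.1 CPM and Ccl5 at 191 CPM were below free RNA at 7 dpi (60.6 and 214 CPM), and Cxcr3, 0.303 and 8.64 CPM, was near it on both days (0.327 and 7.65 CPM). In dendritic cells 3 of 5 were higher and Cxcl10 was lower, against 13.6% higher and 8.44% lower. The lower call was lost without the highest cell on each day. In T and NK cells 5 of 7 were higher, Cxcl9 and Cxcl10 with the limits given above among them, against 9.98% higher and 8.22% lower. Cxcr6, another of the 5, had a log2 ratio of 1.16, which was 0.84 and under 2-fold without cells with basophil gene counts, where 4 of 7 were higher against 7.68% of all genes. The median log2 ratio of all these genes was 0.21 in FAPs and from -0.02 to 0.10 in the other 5 classes. With so few members, these shares are a description.

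Genes known to be induced by interferon gamma were mostly higher at 7 dpi in FAPs, endothelial cells, the smooth muscle label, and T and NK cells. Of all genes, 25.6% were higher in FAPs, 14.9% in endothelial cells, 14.1% in the smooth muscle label, 19.3% in monocytes and macrophages, 13.6% in dendritic cells and 9.98% in T and NK cells. In FAPs 14 of 16 tested genes were at least 2-fold higher with a median log2 ratio of 2.10, in endothelial cells 16 of 16 (1.74), in the smooth muscle label 14 of 17 (1.45) and in T and NK cells 14 of 15 (1.98). The GTPase gene Iigp1 had 26.3 and 272 CPM in FAPs and 90.7 and 539 CPM in endothelial cells, and Gbp5 had 0.584 and 7.85 CPM in FAPs. In monocytes and macrophages 9 of 16 were higher (1.81), with the class II antigen presentation gene H2-Aa at 621 and 7800 CPM. The dendritic cell markers in this class, 17.1 and 355 CPM, differed in the same direction, and their part in the class II values was not tested. In T and NK cells without the cells with basophil genes, 13 of 15 were higher, against 7.68% of all genes. Genes of class II presentation were among them, H2-Aa at 27.6 and 237 CPM and Cd74 at 24.2 and 678 CPM. The 6 monocyte and macrophage markers stood at 217 and 914 CPM in the T cell label, and at 3822 and 1026 CPM in the NK label. Their part in these T and NK values was not tested. In dendritic cells 1 of 12 was higher and 1 lower, near the 13.6% and 8.44% of all genes, with a median of 0.29, and the difference between classes was not tested. There Gbp2 was higher, 29.3 and 69.3 CPM, and Gbp7 was lower, 31.7 and 2.89 CPM. Many of these genes also respond to type I interferons, and the type I interferon list had 9 of 9 higher in FAPs (1.75), 7 of 8 in endothelial cells (1.64), 7 of 8 in the smooth muscle label (1.57), 8 of 9 in T and NK cells (1.78), 4 of 9 in monocytes and macrophages (0.82) and 2 of 9 in dendritic cells (0.49).

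**Figure D5:**
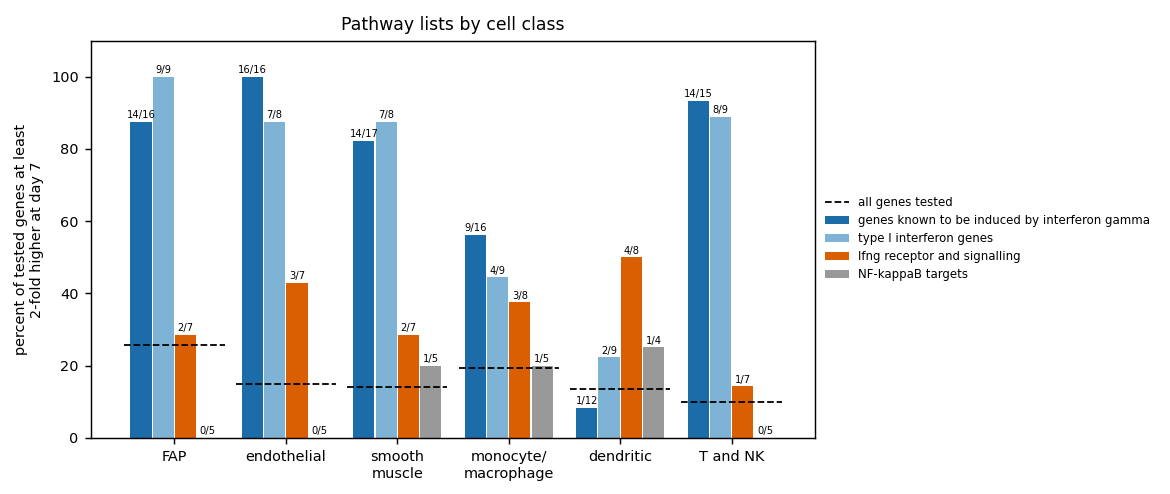
Percent of tested genes of 4 lists that were at least 2-fold higher in CPM at 7 dpi, by cell class, with the counts above the bars and the share of all tested genes as a dashed line. All 16 genes tested of the interferon gamma list were higher in endothelial cells, against 1 of 12 in dendritic cells.

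Of the receptor and its signaling genes, 2 of 7 were higher in FAPs, 3 of 7 with 1 lower in endothelial cells, 2 of 7 in the smooth muscle label, 3 of 8 in monocytes and macrophages, 4 of 8 in dendritic cells, and 1 of 7 with 2 lower in T and NK cells. The share of all genes higher, given above, was 25.6% in FAPs and from 9.98% to 19.3% in the other classes, so the FAP count was near that share. Without the cells with basophil genes, 1 of 7 was higher and 1 lower in T and NK cells. The receptor chain gene Ifngr1 had 160 and 232 CPM in FAPs, with a log2 ratio of 0.54 (0.42 to 0.66). Ciita, the master regulator of class II genes, had 0.849 and 53.2 CPM in monocytes and macrophages, beside the same difference in dendritic cell markers. Of the kappaB target genes, 1 of 5 was higher in monocytes and macrophages, 1 of 5 in the smooth muscle label and 1 of 4 in dendritic cells. Each is 1 gene beside 19.3%, 14.1% and 13.6% of all genes, and is not read as a result. In FAPs 0 of 5 were higher and 2 lower, where 14.0% of all genes were lower. In endothelial cells 0 of 5 were higher. In T and NK cells 0 of 5 were higher and 2 lower, where 8.22% of all genes were lower. Without the cells with basophil genes, 1 of these targets was higher and 1 lower there. Nfkbia, the inhibitor that feeds back on this pathway, had 720 and 176 CPM in FAPs.

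Lymphocyte lists were mixed, and are read beside the 9.98% of all genes higher and 8.22% lower in T and NK cells. Of 7 cytotoxic genes, 3 were higher in T and NK cells at 7 dpi, namely the granzyme gene Gzmk, Nkg7 and Ctsw, with a list median of -0.01. Without the cells with basophil genes 4 of 7 were higher, Gzmb being the fourth, and the median was 1.04. Gzma, Gzmb and Prf1, which encode the killing granule proteins, differed by -0.01 (-0.21 to 0.19), -0.10 (-0.46 to 0.27) and -0.16 (-1.20 to 1.06) on the log2 scale, and without those cells by -0.34, 1.04 and -0.49. Among other chemokines in T and NK cells, 1 of 5 was higher and 4 lower. Xcl1, which attracts cross-presenting dendritic cells, had 118 and 529 CPM, whereas Ccl4 had 4805 and 224 CPM. Of the 1744 Ccl4 counts at 2 dpi, 86 were left without the cells with basophil genes, at 297 CPM, so that Ccl4 differed by under 2-fold and 2 of 5 chemokines were lower. Among inducers of Ifng and their receptors, 2 of 10 were higher and 1 lower in T and NK cells, including the T-box factor gene Tbx21 with 52.3 and 122 CPM. Without the same cells 0 of 10 were higher, and the log2 ratio of Tbx21 was 0.89 (0.22 to 1.65). The cytokine gene Il15 had 2.14 and 18.0 CPM in FAPs and 6.19 and 31.9 CPM in monocytes and macrophages. Of the other lymphocyte chemokine receptors, 0 of 6 tested were higher and 1 was lower in T and NK cells.

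Patterns over labels were compared across 41 label and day combinations with at least 20 cells, as Pearson's r of log2(CPM + 1) over 12455 genes, and are a description. Cxcr6 was most like the T cell genes Bcl11b (0.95), Cd6 (0.94) and Cd3e (0.94), and Ifng most like Sh2d1a (0.94), Nkg7 (0.93) and Gzmb (0.93). Ccl5 and Cxcr3 were each the most alike of all genes to the other (0.87), followed by Klrk1 and Serpina3g for Ccl5 and by Gpr18 and Ipcef1 for Cxcr3. Cxcl16 was most like Slc29a3 (0.87), Tifab (0.84) and Cx3cr1 (0.84). Cxcl10 was most like Ifit1 (0.75), Nlrx1 (0.73) and Ifit3b (0.71). Cxcl9 was most like Tlr3 (0.77), Rtn1 (0.74) and Gm4951 (0.70), and its r with Cxcl10 was 0.58. The combinations share 2 libraries and differ in depth.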

How the data were processed

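The authors deposited UMI counts as whole numbers for all barcodes and for called barcodes, SoupX-corrected values, which are estimated counts, and a cell annotation table. Per the submitters' processing notes reads were aligned to mm10 with Cell Ranger (3.1.0) and analysed with Seurat (3.1.5). Doublets were removed by the authors with DoubletFinder before annotation, according to the study's methods, and no caller was run here. Labels came from clusters of a large integrated collection.

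Labeled cells were kept when their SoupX values held 750 or more genes and 1000 or more transcripts, with a mitochondrial share of 30% or less. Uncorrected counts were summed per label, class and day. Levels have exact Poisson, ratios conditional binomial and shares Clopper-Pearson intervals (SciPy 1.17.1), all at 95%. A count of 0 was set against 3 counts per group of cells. Ratios needed 20 cells on each day, and the 2-fold share over all genes 20 counts over both days. For shares of cells with a count, cells were thinned without replacement. Gene positions came from GENCODE vM21 and promoter windows from RefSeq. List genes were named by size of ratio (at most 4 a list, from at least 50 counts), with the 3 most alike genes for each member. The marker subsets were formed, and Ifngr1, Gzma, Gzmb, Prf1, Adam10 and Adam17 named, after values were seen. Members and lists were chosen with earlier results of these data known. Alternatives were SoupX values, other scaling, per-cell means, other thinning, no count minimum and other barcode limits, and, chosen after seeing the data, leaving out the cell with the most counts, forming subsets from 1 marker count, and counting lists in T and NK cells without cells with 3 or more counts of basophil and mast cell genes. The intervals were tested on simulated data. Values of some single genes are not reported here.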

Additional observations from a re-analysis of the deposited data

Results flagged for a closer look

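Called barcodes that met the quality limits but carried no label also held members, above the limit that a count of 0 allows. In the 710 such barcodes at 2 dpi, Cxcl9 was at 3.74 CPM, Cxcl10 at 44.0 CPM, Cxcl16 at 61.3 CPM and Ccl5 at 16.1 CPM. In the 502 such barcodes at 7 dpi, Cxcl9 and Cxcl10 were each at 86.0 CPM, Cxcl16 at 197 CPM and Ccl5 at 108 CPM. Of the lymphocyte genes at 7 dpi, Cxcr3 was at 13.3 CPM, Cxcr6 at 4.83 CPM and Ifng at 23.8 CPM in them.

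Cxcl10 in dendritic cells had a log2 ratio of -1.03 at 7 dpi over 2 dpi, opposite in sign to that in FAPs, endothelial cells, monocytes and macrophages, the smooth muscle label, and T and NK cells. With 1 library a day this difference was not tested. Of the 236 dendritic counts at 2 dpi, 112 lay in 1 cell, and without the highest cell on each day the levels were 58.0 and 41.6 CPM.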

How the results depend on the processing

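No paired analysis was possible because each day had 1 library. Of 83 alternative values of the 16 log2 ratios, 74 stayed within their counting interval, 8 moved and 1 reversed. The reversed value was Ccl5 in endothelial cells, -0.86 with SoupX-corrected values, where the uncorrected counts were 2 and 10. Without the cell with the most counts, Cxcl9 was 4.35 in FAPs and 6.82 in monocytes and macrophages, and Ccl5 in the latter was 6.21. With per-cell means, Ccl5 in FAPs was 0.61, and Cxcl10 and Cxcl16 in monocytes and macrophages were 0.97 and 3.15. With median-of-ratios scaling, Cxcl16 there was 2.87. Without cells with basophil genes, Ccl5 in T and NK cells was 0.45, and 7.68% of all genes were higher and 8.23% lower there. Without a count minimum, the shares of genes higher and lower were 20.4% and 11.0% in FAPs, 13.9% and 7.36% in endothelial cells, 14.7% and 5.74% in the smooth muscle label, 19.8% and 9.02% in monocytes and macrophages, 15.5% and 5.49% in dendritic cells and 5.93% and 7.94% in T and NK cells. Shares of cells with a count at 7 dpi, without thinning and thinned to 2000 counts, were 31.1% and 16.5% for Cxcr3, 30.7% and 21.8% for Cxcr6 and 41.0% and 33.1% for Ifng in T cells, 51.4% and 38.6% for Ifng in NK cells, 50.1% and 26.9% for Cxcl9 and 26.7% and 17.6% for Cxcl10 in Pro-remodeling FAPs, and 95.6% and 76.1% for Cxcl16 in Cx3cr1-high macrophages. Barcodes with 1 to 10 counts held, at 7 dpi, Cxcl9 at 79.5, Cxcl10 at 63.2, Cxcl16 at 172, Ccl5 at 289, Cxcr6 at 9.03 and Ifng at 23.5 CPM, and at 2 dpi Cxcl16 at 46.2 CPM and Cxcr3 and Cxcr6 at 0. Without the highest cell, FAPs held 36.5% of Cxcl9 at 2 dpi and 72.7% at 7 dpi, monocytes and macrophages 50.9% of Cxcl10 at 2 dpi, FAPs 53.7% of Cxcl10 at 7 dpi, and T and NK cells 76.0% of Ccl5 at 7 dpi. With SoupX-corrected values T and NK cells held 75.0% of Ccl5 and 99.0% of Ifng at 7 dpi. Ccl5 in endothelial cells without the highest cell gave no ratio, since 0 counts were left at 2 dpi. With 1 marker count for a subset, cells with Xcr1 or Clec9a held 74.4% of dendritic Cxcl9 and cells with Cd8a or Cd8b1 65.3% of T cell Ifng at 7 dpi. The causes were not tested.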
